A study of Mus musculus with 8 samples.

Results

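The mRNAs of the cytosolic ribosomal proteins were followed in hearts of Gpihbp1 knockout and wild-type mice. Members were the rows whose symbol starts with Rpl or Rps followed by a number, with the endings a, al, x, l or l1 allowed, together with Rplp0, Rplp1, Rplp2 and Rpsa. The rule found 84 of the 17190 genes listed, 31 of the small and 53 of the large ribosomal subunit. Rpl3l, the striated muscle paralogue of Rpl3, was set apart, which left 83: 76 core ribosomal protein genes and the 7 paralogues Rpl22l1, Rpl32l, Rpl36al, Rpl39l, Rpl6l, Rpl7l1 and Rps27l. Rps3a1, Fau and Rack1 encode ribosomal proteins under other names and were kept as a separate list. All animals were male and ate standard chow, and none had a further treatment in the labels; 4 hearts carried the genotype Gpihbp1-/- and 4 were wild type. The labels give no age and no strain. Hearts are named by genotype and by the number in their label: KO 1, KO 2, KO 3 and KO 4, and WT 2, WT 4, WT 5 and WT 6. The hearts were measured as polyadenylated RNA in bulk, so fewer cells of a type and less RNA per cell cannot be told apart in any value below.

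Each ribosomal protein is needed in roughly equal amounts with the ribosomal RNAs, and cells make them together. Their mRNAs are short, abundant and polyadenylated, and in mammals many begin with a C followed by a run of pyrimidines, the terminal oligopyrimidine or TOP motif. Through this motif the kinase mTORC1 and the RNA-binding protein Larp1 control translation and stability of the mRNAs. GPIHBP1 is a protein of capillary endothelium that carries lipoprotein lipase to the vessel lumen, and mice without it accumulate chylomicrons in plasma. In mouse heart and skeletal muscle Rpl3l takes the place of Rpl3 in a part of the ribosomes.

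The members' start-site sequences were searched for runs of pyrimidines. RefSeq windows of 30 bases around an annotated transcript start, 15 before and 15 after it, were at hand for 62 of the 83 genes, on build GRCm38.p6. Of their 73 windows, 29 (39.7%) held an unbroken run of 8 or more C or T bases on the coding strand, compared with 3943 of 32851 windows (12.0%) of all genes in that table. On the opposite strand the share was 4.11% of the members' windows and 13.2% of all windows. In the lines that follow, capitals mark the longest run of C and T, and each window is read 5′ to 3′ on the coding strand. Most of the members' windows thus held no such run. The genes shown are some whose values recur below: Rps6, Rps27, Rplp2, Rpl38, Rpl4 and Rpl22l1 with a run of 8 or more, and Rps28, Rplp0, Rpl41 and the set-apart Rpl3l without one. In Rpl4 the run lay wholly before the annotated start. A window describes letters only, and no match in it says nothing of any factor.
Rps6, chr4:86857353-86857382, minus strand: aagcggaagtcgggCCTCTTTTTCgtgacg
Rps27, chr3:90213634-90213663, minus strand: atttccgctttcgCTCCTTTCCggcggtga
Rplp2, chr7:141447636-141447665, plus strand: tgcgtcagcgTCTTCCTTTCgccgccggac
Rpl38, chr11:114668565-114668594, plus strand: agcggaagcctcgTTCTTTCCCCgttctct
Rpl4, chr9:64173372-64173401, plus strand: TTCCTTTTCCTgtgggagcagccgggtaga
Rpl22l1, chr3:28805493-28805522, plus strand: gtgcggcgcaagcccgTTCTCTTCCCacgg
Rps28, chr17:33824548-33824577, minus strand: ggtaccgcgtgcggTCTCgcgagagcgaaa
Rplp0, chr5:115559452-115559481, plus strand: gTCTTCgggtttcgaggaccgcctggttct
Rpl41, chr10:128549154-128549183, minus strand: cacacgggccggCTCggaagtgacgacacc
Rpl3l, chr17:24727811-24727840, plus strand: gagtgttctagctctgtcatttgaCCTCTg
Rpl3l, second start, chr17:24732670-24732699, plus strand: gtcatcaacagctacagtgCCCCaaatgtc

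The libraries held 9065553 to 13492957 estimated counts. Gpihbp1 had 0, 0, 1 and 0 counts in KO 1 to KO 4, against 1108, 1951, 833 and 1783 in WT 2, WT 4, WT 5 and WT 6, with an edgeR adjusted p of 0.000598. Of the 12826 genes that passed a filter on low counts, 4 (0.0312%) passed the threshold of an adjusted p under 0.05 in the knockout comparison, 3 higher (0.0234%) and 1 lower (0.0078%). All 10 cardiomyocyte markers, such as Myh6 and Tnnt2, had counts in every heart. WT 6, WT 2 and KO 2 stood apart from the other 5 hearts in some measures, but not all 3 in each of them. The TMM scaling factor, which makes libraries of different composition comparable, was 0.678 for WT 6 and 0.964 to 1.16 for the other hearts. Summed counts scaled to library size (CPM) of 8 atrial markers were 4505 in KO 2, 3176 in WT 2 and 5379 in WT 6, and 226 to 403 in the other 5 hearts. Nearly all of the sum in KO 2 and WT 2 was the natriuretic peptide gene Nppa, at 4467 and 3132 CPM, against 3262 CPM in WT 6. Of the 5 tested atrial markers 2 lay above their mean over the hearts in KO 2, 2 in WT 2 and 5 in WT 6. Their median deviation on the log2 scale was -1.16, -0.91 and 2.91 in these hearts, and -1.17 to -0.86 in the other 5. Among all 8 atrial markers, tested or not, Bmp10 had 0 counts in every heart other than KO 3 and WT 6. Myl7 and Sln had 0 in KO 1, KO 2 and WT 2. For the named members the log2 fold change is also given without these 3 hearts, a fit of 3 knockout and 2 wild-type hearts. The members' own median deviation was also highest in these 3 hearts, at 1.60 in WT 6, 0.93 in WT 2 and 0.15 in KO 2. That fit therefore leaves out the members' highest hearts and is no independent check.

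The ribosomal protein mRNAs varied from heart to heart as a block, and the widest span was among the wild-type hearts. Added up over the 83 genes, they took 8.55%, 13.9%, 7.58% and 6.89% of all transcript abundance (TPM, which is scaled to transcript length and library) in KO 1 to KO 4. In WT 2, WT 4, WT 5 and WT 6 they took 19.3%, 10.55%, 6.39% and 15.3%. The highest and the lowest heart were both wild type, so the knockout values lay inside the wild-type range. The mean share of TPM was 9.23% ± 3.18 in knockout hearts and 12.9% ± 5.62 in wild-type hearts (SD, n = 4 each). In shares of the counts, the members took 3.03%, 4.75%, 2.62% and 2.33% in KO 1 to KO 4, against 7.51%, 3.88%, 1.94% and 7.65% in WT 2, WT 4, WT 5 and WT 6. The order changed with the scale: WT 2 led on TPM, while WT 6 led narrowly on counts and by far on TMM-scaled CPM. On that last scale the members summed to 27718, 41876, 27177 and 23484 CPM in KO 1 to KO 4, and to 70614, 33456, 19450 and 113110 CPM in WT 2, WT 4, WT 5 and WT 6. The knockout hearts again lay within the wild-type range on both of these scales.

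**Figure D1:**
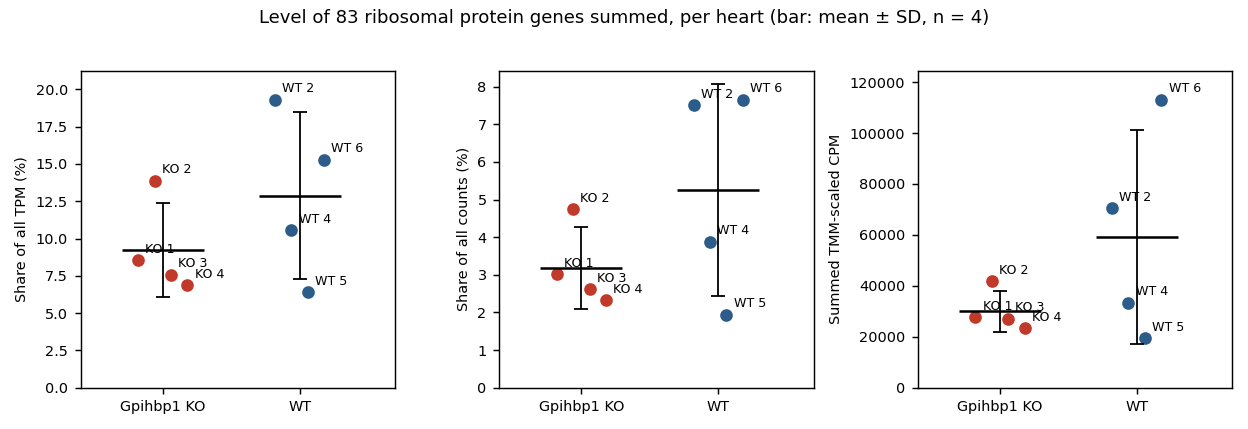
Summed level of the 83 ribosomal protein genes in each heart, as a share of all TPM (left, in percent), as a share of all counts (middle, in percent) and as TMM-scaled CPM (right); each point is a heart, the long line the mean and the bar the SD of 4 hearts. The 4 knockout hearts lie between WT 5, the lowest heart, and WT 2 or WT 6, the highest.

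Member by member the order of the hearts was nearly the same. Of the 81 members that passed the count filter, 78 had their highest CPM in WT 6 and 3 in WT 2, and 78 had their lowest CPM in WT 5. Over all genes tested, WT 6 was highest in 25.1% and WT 5 lowest in 16.4%. Taken as deviations of log2 CPM from the gene's mean over the 8 hearts, the members' median was -0.41 in KO 1, 0.15 in KO 2, -0.48 in KO 3 and -0.68 in KO 4. It was 0.93 in WT 2, -0.12 in WT 4, -0.99 in WT 5 and 1.60 in WT 6. The group means of these medians were -0.35 ± 0.36 in knockout hearts and 0.35 ± 1.14 in wild-type hearts (SD, n = 4 each), so the wild-type hearts differed among themselves by more than the groups differed. On TPM, WT 2 was highest for 70 of the 81 members, WT 6 for 7 and KO 2 for 4, and WT 5 was lowest for 67. Of the 12826 genes tested, WT 2 was highest on TPM for 1011, WT 6 for 306 and KO 2 for 4482. WT 5 was lowest for 591 of them.

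**Figure D2:**
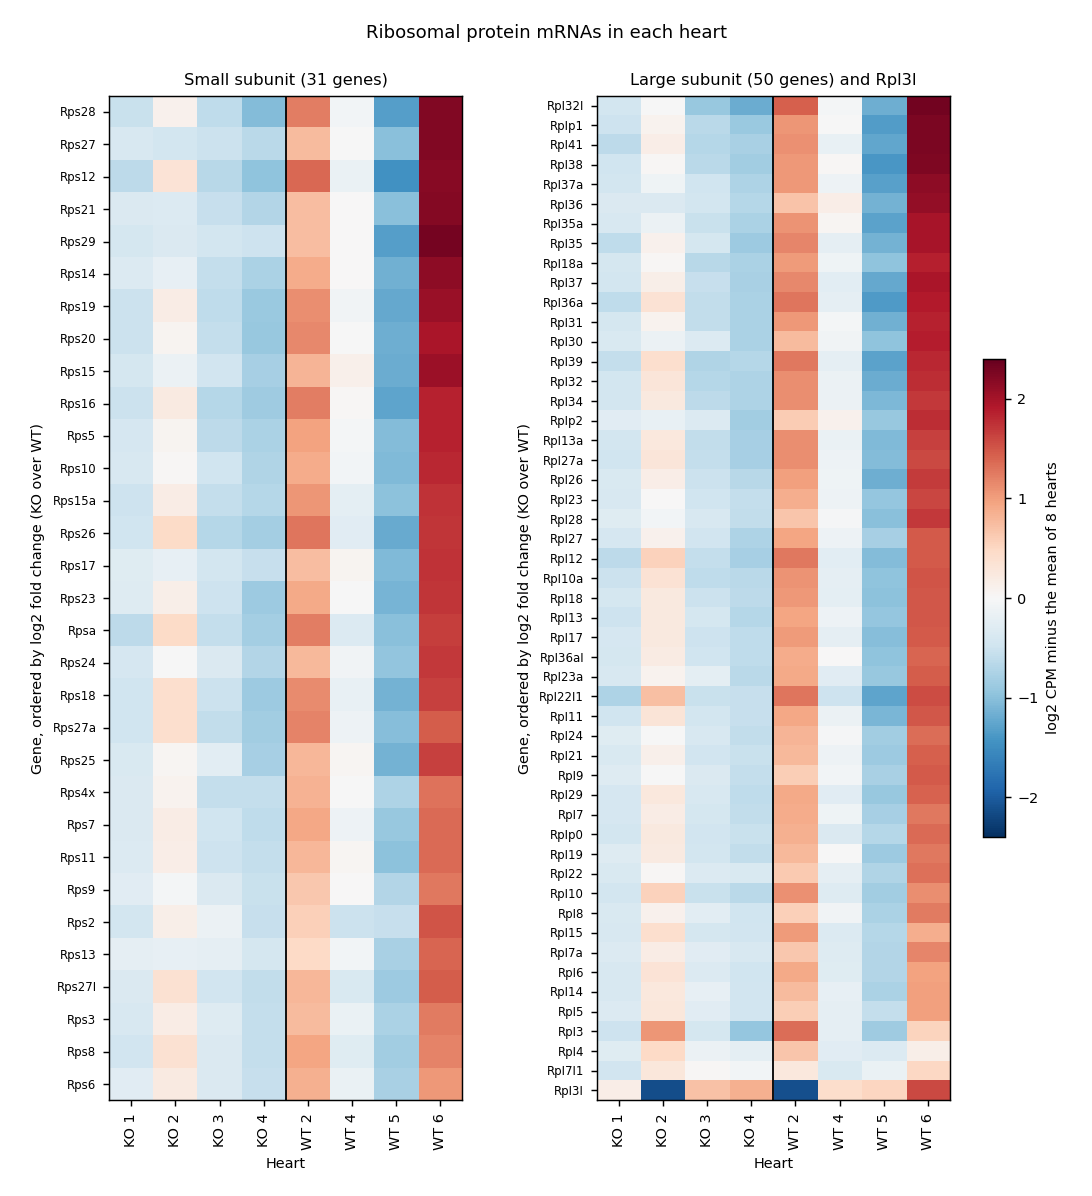
Deviation of log2 CPM from the mean of the 8 hearts (colour scale) for every tested ribosomal protein gene (rows, small subunit left, large subunit and Rpl3l right, ordered by log2 fold change) in each heart (columns, knockout left of the line). Whole columns share a colour: WT 6 and WT 2 are high and WT 5 is low across both subunits, and Rpl3l in the last row is low in KO 2 and WT 2.

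How tightly the members kept together was measured by taking the median of all members out of each heart. The SD of log2 CPM over the 8 hearts had a median of 0.88 over the members, and 0.21 after the heart's median was taken out. For 60 of 81 members every heart then lay within 0.5 log2 units of the block. Rpl13, a large subunit protein, followed the block most closely, with a remaining SD of 0.07. The least tied members were Rpl7l1 and Rpl4 (both 0.66), Rpl3 (0.56), Rpl32l (0.43) and Rps12 (0.37). Since the block was defined by these same members, the values describe their spread and are no test.

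The knockout comparison called no member. The log2 fold change of knockout over wild type was negative for 81 of 81 members tested, compared with 52.9% of all genes tested, and below -0.5 for 78 of them, compared with 8.56% of all genes. The members' median was -0.98, and the median over all genes was -0.019. None had an edgeR adjusted p under 0.05; the adjusted p of each was 0.99998. With an unadjusted p under 0.05 stood 8 members by edgeR, all lower in knockout hearts, compared with 0.655% of all genes in that direction. DESeq2 and limma on log2 TPM called no member either, and had 39 and 0 members at an unadjusted p under 0.05. In edgeR that count of 8 moved with single hearts: it was 67 without WT 5, 21 without WT 4, 12 without KO 2, 3 without WT 2, and 0 without KO 1, KO 3, KO 4 or WT 6. For 0 of 81 members were all knockout hearts below all wild-type hearts, against 0.366% of all genes. Without WT 6 the members' median was -0.47, with 80 of 81 negative against 56.8% of all genes. Without WT 2 and KO 2 it was -1.09, with 81 of 81 negative against 54.7%. Without WT 2, WT 6 and KO 2 it was -0.023, with 51 of 81 negative against 49.5% of all genes. These left-out hearts are those where the members stood highest, so that fit is no independent check. The members shift together in each heart, so their 81 directions are not separate pieces of evidence, and p-values measure only the spread between these hearts.

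Proteins of the small subunit, which reads the mRNA, had log2 fold changes from -1.53 to -0.62 with a median of -1.06 over 31 genes. Rps28 was the most negative of the core members. Its level was 1393, 2458, 1233 and 929 TPM in KO 1 to KO 4, against 4122, 1865, 941 and 3510 TPM in WT 2, WT 4, WT 5 and WT 6. WT 2 and WT 6 were above every knockout heart, and WT 5 was next to the lowest knockout heart. The log2 fold change was -1.53 (SE 0.67, 95% interval -3.02 to -0.03, edgeR adjusted p 0.99998), and it was -0.14 without WT 2, WT 6 and KO 2.

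Rps27, Rps21 and Rps29, short proteins of the same subunit, also had their highest TPM in WT 2 and WT 6. Rps27 stood at 2847, 3076, 2412 and 2201 TPM in KO 1 to KO 4, and at 5396, 3526, 2180 and 6198 TPM in WT 2, WT 4, WT 5 and WT 6. Its log2 fold change was -1.46 (SE 0.60), with edgeR adjusted p 0.99998 as for every member, and -0.08 without WT 2, WT 6 and KO 2. WT 5 lay below all 4 knockout hearts and the other wild-type hearts above them. Rps21 and Rps29 had log2 fold changes of -1.44 and -1.43; without those 3 hearts Rps21 was at -0.11 and the sign of Rps29 turned, to 0.06. Rps29 was nearly even in knockout hearts, at 281 ± 12.4 CPM, against 757 ± 765 CPM in wild-type hearts (SD, n = 4 each).

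Rps6, the substrate of the S6 kinases downstream of mTORC1, was the least negative member of the small subunit. Its level was 518, 827, 453 and 424 TPM in KO 1 to KO 4, against 999.9, 565, 407 and 523 TPM in WT 2, WT 4, WT 5 and WT 6. The groups interleaved, and the log2 fold change was -0.62 (SE 0.44, 95% interval -1.61 to 0.37); its sign turned to 0.05 without WT 2, WT 6 and KO 2. Rpsa, which also serves as a laminin receptor at the cell surface, averaged 1011 ± 565 TPM in knockout hearts and 1414 ± 800 TPM in wild-type hearts (SD, n = 4 each). Its log2 fold change was -1.06 (SE 0.62), and -0.04 without those 3 hearts.

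Proteins of the large subunit, which joins the amino acids, had log2 fold changes from -1.79 to -0.12, and the median of the 50 genes was -0.94. The stalk proteins recruit the elongation factors: Rplp0 is its base and Rplp1 and Rplp2 form its arms. Rplp1 had the highest mean TPM of all members. It stood at 2447, 4174, 2044 and 1824 TPM in KO 1 to KO 4, against 6311, 3395, 1571 and 6368 TPM in WT 2, WT 4, WT 5 and WT 6. WT 2 and WT 6 were nearly equal and above every knockout heart, while WT 5 was the lowest of the 8. The log2 fold changes were -1.48 (SE 0.68) for Rplp1, -1.10 (SE 0.53) for Rplp2 and -0.80 (SE 0.50) for Rplp0. Without WT 2, WT 6 and KO 2 they were -0.14 for Rplp1, -0.14 for Rplp2 and, with the sign turned, 0.03 for Rplp0. With all hearts the base had the smallest estimate of the stalk, but the 3 intervals overlapped widely and their differences were not tested.

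Rpl38, known in mice for its part in translating Hox mRNAs, and Rpl41, the smallest ribosomal protein, both had a log2 fold change of -1.48, and of -0.13 and -0.08 without WT 2, WT 6 and KO 2. Rpl38 had 2563, 4035, 2128 and 1853 TPM in KO 1 to KO 4, and 6316, 3491, 1613 and 5934 TPM in WT 2, WT 4, WT 5 and WT 6. Rpl36 had a log2 fold change of -1.36, and of -0.13 without those 3 hearts. At the other end were long members. Rpl4, a protein of the exit tunnel, had 551, 1063, 559 and 569 TPM in KO 1 to KO 4 and 961, 565, 599 and 307 TPM in WT 2, WT 4, WT 5 and WT 6. On TPM, KO 2 was its highest and WT 6 its lowest heart. Among the 81 members WT 6 was lowest on TPM for 3 and KO 2 highest for 4. Over the 12826 genes tested WT 6 was lowest on TPM for 9891 and KO 2 highest for 4482. Its log2 fold change was -0.13 (SE 0.35, 95% interval -0.92 to 0.66), and its sign turned to 0.12 without WT 2, to 0.07 without WT 2, WT 6 and KO 2, and to 0.23 in the limma fit on TPM. Rpl5, which binds 5S rRNA and can restrain the p53 regulator Mdm2, was at -0.50 (SE 0.40), and Rpl14 at -0.52 (SE 0.41); without those 3 hearts they were at 0.03 and 0.12, and Rpl5 was at 0.03 in the limma fit.

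Rpl3 and Rpl3l, which occupy the same place near the catalytic centre of the large subunit, split the hearts in another way. Rpl3l had 275, 63.8, 362 and 436 TPM in KO 1 to KO 4, against 52.3, 344, 389 and 372 TPM in WT 2, WT 4, WT 5 and WT 6. Rpl3 had 275, 905, 263 and 201 TPM in KO 1 to KO 4, and 868, 335, 237 and 227 TPM in WT 2, WT 4, WT 5 and WT 6. KO 2 and WT 2 were low in Rpl3l and high in Rpl3, and the other 6 hearts resembled each other whatever the genotype. The muscle paralogue made up 50.02%, 6.59%, 57.9% and 68.5% of the pair's TPM in KO 1 to KO 4, and 5.69%, 50.6%, 62.1% and 62.1% in WT 2, WT 4, WT 5 and WT 6. Its mean share was 45.7% ± 27.2 in knockout hearts and 45.1% ± 26.9 in wild-type hearts (SD, n = 4 each). Put as a ratio, Rpl3 exceeded Rpl3l 14.2 times in KO 2 and 16.6 times in WT 2, and the ratio was between 0.46 and 0.999 in the other 6 hearts.

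**Figure D3:**
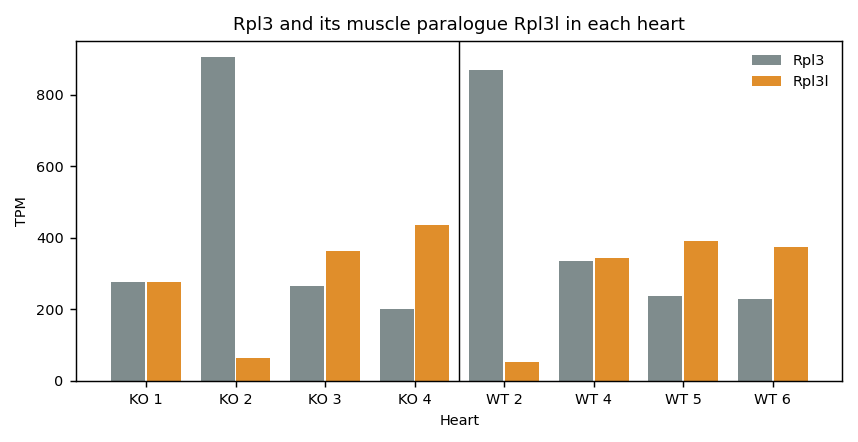
TPM of Rpl3 (grey) and of its muscle paralogue Rpl3l (orange) in each heart, knockout hearts left of the line and wild-type hearts right of it; each bar is 1 heart. Rpl3 is at 905 TPM in KO 2 and 868 TPM in WT 2, where Rpl3l is at 63.8 and 52.3 TPM.

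The genotypes did not separate for either gene. The log2 fold change was -0.33 for Rpl3l (SE 0.75, 95% interval -2.01 to 1.35, edgeR adjusted p 0.99998) and -0.41 for Rpl3 (SE 0.58, 95% interval -1.70 to 0.88, edgeR adjusted p 0.99998). Rpl3l turned to 0.02 without KO 2, to 0.22 without WT 6 and to 0.13 without WT 2, WT 6 and KO 2, and was 0.02 in the limma fit on TPM; Rpl3 turned to 0.09 without WT 2 and was at -0.10 without WT 2, WT 6 and KO 2. KO 2 and WT 2 also differed from the rest in cell type markers. Summed CPM of 10 macrophage markers was 3168 in KO 2 and 4711 in WT 2, and 483 to 879 in the other hearts, with no marker at 0 in any heart. The 10 fibroblast markers, collagen and other matrix genes such as Col1a1 and Postn among them, summed to 11600 CPM in KO 2 and 10023 CPM in WT 2. Elsewhere they summed to 2486 to 3605 CPM. Above their mean over the hearts lay 7 of the 10 in KO 2 and 9 in WT 2. The 10 cardiomyocyte markers summed to 40809 CPM in KO 2 and 43243 CPM in WT 2, and to 64307 to 127280 CPM elsewhere. The part of these cells in the Rpl3 and Rpl3l values was not tested.

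The other paralogues were compared with their parent genes. Rpl22l1 made up 69.4% ± 6.64 of its pair with Rpl22 in knockout hearts and 69.6% ± 7.24 in wild-type hearts (SD, n = 4 each). Within genotypes it was highest in KO 2, at 79.1%, and in WT 2, at 78.4%. Its log2 fold change was -0.85 and that of Rpl22, an RNA-binding protein of the large subunit, -0.71; they were at 0.23 and 0.10 without WT 2, WT 6 and KO 2. Rpl36al made up 46.5% ± 2.65 of its pair in knockout hearts and 44.1% ± 7.65 in wild-type hearts, with log2 fold changes of -0.88 for Rpl36al and -1.23 for Rpl36a. Without those 3 hearts Rpl36al was at -0.11 and the sign of Rpl36a turned, to 0.02.

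Rps27l, known as a target of p53, made up 11.3% ± 2.82 of its pair with Rps27 in knockout hearts and 8.44% ± 1.78 in wild-type hearts (SD, n = 4 each). By heart the share was 9.73%, 15.5%, 9.77% and 10.3% in KO 1 to KO 4. In WT 2, WT 4, WT 5 and WT 6 it was 9.86%, 7.73%, 9.91% and 6.25%, so the groups overlapped. The log2 fold change of Rps27l was -0.73, against -1.46 for Rps27. Without WT 2, WT 6 and KO 2 the sign of Rps27l turned to 0.15, against -0.08 for Rps27. Rpl7l1, named as a relative of Rpl7, had 23.9, 45.3, 30.9 and 31.5 TPM in KO 1 to KO 4 and 34.9, 25.9, 32.8 and 19.1 TPM in WT 2, WT 4, WT 5 and WT 6. These values interleaved, and the log2 fold change of -0.12 (SE 0.26) was the closest to 0 of all members; it was 0.03 under total-count scaling, 0.22 in the limma fit, 0.02 without WT 6 and 0.11 without WT 2, WT 6 and KO 2.

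Rpl32l, listed as a gene of its own, had the most negative log2 fold change, -1.79 (SE 0.69, 95% interval -3.34 to -0.24, edgeR unadjusted p 0.0278 and adjusted p 0.99998), and was at -0.31 without WT 2, WT 6 and KO 2. It had 39, 72, 25 and 21 counts in KO 1 to KO 4 and 189, 48, 23 and 173 counts in WT 2, WT 4, WT 5 and WT 6. WT 2 and WT 6 were high and WT 5 lay among the lowest knockout hearts. Rpl32l took 0.792% ± 0.114 of the TPM of its pair with Rpl32 in knockout hearts and 1.14% ± 0.230 in wild-type hearts (SD, n = 4 each). Whether the authors' counting divided reads between these similar genes was not tested, so the value of Rpl32l is uncertain. Rpl39l and Rpl6l failed the count filter: Rpl39l had at most 10 counts in a heart and Rpl6l at most 5.84.

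Rps3a1, Fau and Rack1, the ribosomal protein genes with other names, had log2 fold changes inside the members' range. Fau, made as a fusion with a ubiquitin-like protein, was at -1.23. Rps3a1, of the small subunit, was at -0.77 and Rack1, a signalling scaffold on the small subunit, at -0.74. All 3 log2 fold changes were negative with a median of -0.77, or -0.45 without WT 6 and -0.049 without WT 2, WT 6 and KO 2, and 0 of 3 passed the threshold (edgeR), with 0 at an unadjusted p under 0.05.

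Other gene lists of protein synthesis lay closer to 0. Elongation factors and other mRNAs with a TOP motif, 17 genes, had a median log2 fold change of -0.16 with 13 negative, and 0 passed the threshold. Tpt1, the mRNA of the translationally controlled tumour protein, was its most negative at -0.90 (SE 0.52), with 2101 ± 165 CPM in knockout hearts and 3919 ± 2961 CPM in wild-type hearts (SD, n = 4 each). The 53 initiation factors had a median of -0.037, with 28 negative. Eif4ebp3, a repressor of cap-dependent initiation matched by its name, was at -0.91 (SE 0.42). Eif2ak1, also matched by its name, was at 0.40 (SE 0.27). The 45 genes of ribosome biogenesis had a median of 0.029, with 24 positive. Rrs1, an assembly factor of the large subunit, was at 0.53 (SE 0.20) with 22.6, 24.3, 28.6 and 24.9 CPM in KO 1 to KO 4 and 18.3, 14.7, 21.8 and 14.5 CPM in WT 2, WT 4, WT 5 and WT 6. All knockout hearts were above all wild-type hearts for Rrs1, as for 0.265% of all genes, but its edgeR adjusted p was 0.99998. The 22 mTOR, Myc and stress regulators had a median of 0.077, with 16 positive. Ddit4, an inhibitor of mTORC1, was at 0.73 (SE 0.31), with 44.6 ± 12.9 CPM in knockout hearts and 26.9 ± 9.08 CPM in wild-type hearts (SD, n = 4 each). Its groups did not overlap either, its unadjusted p was 0.0414 and its edgeR adjusted p 0.99998. Deptor, another inhibitor, was at -0.52 (SE 0.37). No gene of these 4 lists passed the threshold by edgeR; unadjusted p under 0.05 was reached by 0 of 17, 0 of 53, 1 of 45 and 1 of 22. The signs of these medians turned with the fit, but the median of all genes moved as well. It was 0.25 in the limma fit on TPM and 0.081 under total-count scaling. For the elongation factors and their kin the median was 0.17 in the limma fit on TPM and 0.088 without WT 2, WT 6 and KO 2. For the initiation factors it was 0.073 under total-count scaling, 0.29 in the limma fit, 0.032 without WT 2, 0.043 without WT 6 and 0.13 without the 3 hearts. For ribosome biogenesis it was -0.049 without KO 2 and -0.023 without WT 2 and KO 2. For the mTOR, Myc and stress regulators it was -0.014 without the 3 hearts.

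Lists of short mRNAs outside the cytosolic ribosome moved with WT 6. The 82 nuclear genes of oxidative phosphorylation had a median log2 fold change of -0.62 with all hearts and 0.054 without WT 6. The 78 proteins of the mitochondrial ribosome had a median of -0.30 and, without WT 6, 0.11. The 37 proteasome genes had a median of -0.13 and, without WT 6, 0.026. Under total-count scaling these medians were -0.35, -0.10 and 0.030, and in the limma fit on TPM -0.041, 0.14 and 0.21. The median of all genes was 0.081 under total-count scaling and 0.25 in the limma fit. For the cytosolic ribosomal proteins the median without WT 6 kept its sign, at -0.47. Mrpl33, a protein of the mitochondrial ribosome, was at -1.10 (SE 0.49). Cox6b2, a subunit isoform of cytochrome c oxidase, was at -1.52 (SE 0.57) with every knockout heart below every wild-type heart, but at no more than 4.50 CPM. In these 3 lists 0 genes passed the threshold by edgeR, and 1, 1 and 0 had an unadjusted p under 0.05.

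**Figure D4:**
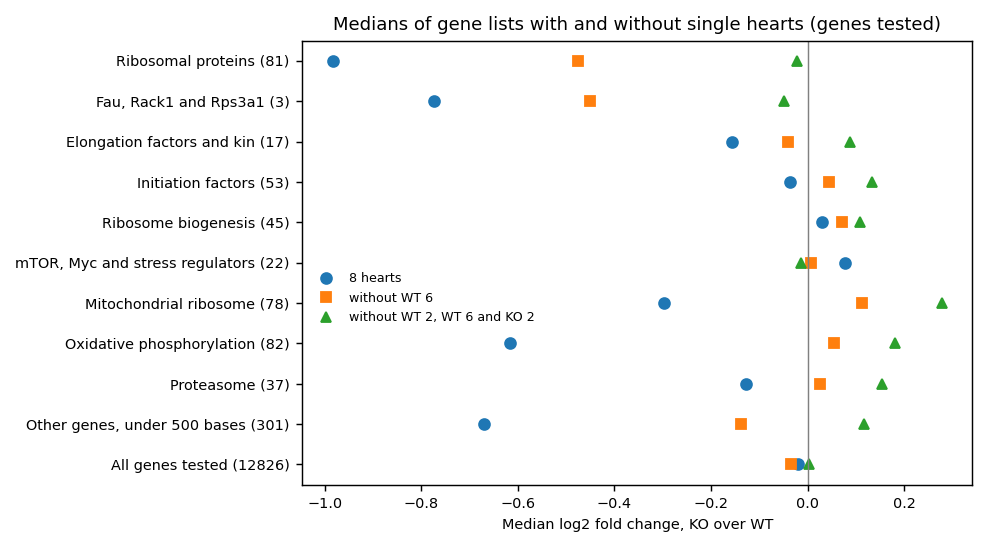
Median log2 fold change, knockout over wild type (horizontal axis), of each gene list (rows, with the number of genes tested), over the 8 hearts (circles), without WT 6 (squares) and without WT 2, WT 6 and KO 2 (triangles). The ribosomal proteins lie at -0.98, -0.47 and -0.023, and oxidative phosphorylation at -0.62, 0.054 and 0.18.

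Within WT 6 and WT 5 the members' deviations moved with mRNA length. Length, in bases, was taken as implied by the deposited counts and FPKM, the fragments scaled to transcript length and library. Pearson's r between log2 length and the deviation, across the 81 members, was 0.08, 0.33, 0.32 and 0.37 in KO 1 to KO 4. It was -0.16 in WT 2, -0.37 in WT 4, 0.58 in WT 5 and -0.59 in WT 6. These are relations across genes of the same libraries, and genes are not independent replicates. Other genes had r of -0.53 in WT 6 and 0.47 in WT 5 across 12247 genes. The log2 fold change itself had r of 0.55 with length across members and 0.35 across other genes.

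Rpl38, with an implied length of 84.3 bases, deviated by 2.24 in WT 6 and by -1.39 in WT 5. Rpl4 and Rpl3, at 1181 and 1119 bases, deviated by 0.15 and 0.53 in WT 6 and by -0.33 and -0.86 in WT 5. Rps15a and Rps20 broke the pattern, with implied lengths of 4890 and 3200 bases and WT 6 deviations of 1.72 and 1.96. The implied length is that of the annotated transcripts and need not be that of the mRNA in the heart.

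Within bins of implied length the members had more negative medians than other genes, but they were also shorter. Their median implied lengths were 277, 688 and 1148 bases in the bins below, against 362, 786 and 1523 bases for other genes. Below 500 bases 46 members had a median log2 fold change of -1.12 and 301 other genes one of -0.67. From 500 to 1000 bases the medians were -0.85 for 19 members and -0.33 for 960 other genes, and from 1000 to 2000 bases -0.71 for 13 members and -0.088 for 2979 other genes. Without WT 6 the medians below 500 bases were -0.55 for members and -0.14 for other genes. Without WT 2, WT 6 and KO 2 they were -0.068 and 0.12. In WT 2 the members below 500 bases deviated by a median of 0.96 and other genes of that length by 0.21, whereas in WT 6 the medians were 1.78 and 1.39. These differences were not tested, because the members were chosen with results of these hearts known.

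**Figure D5:**
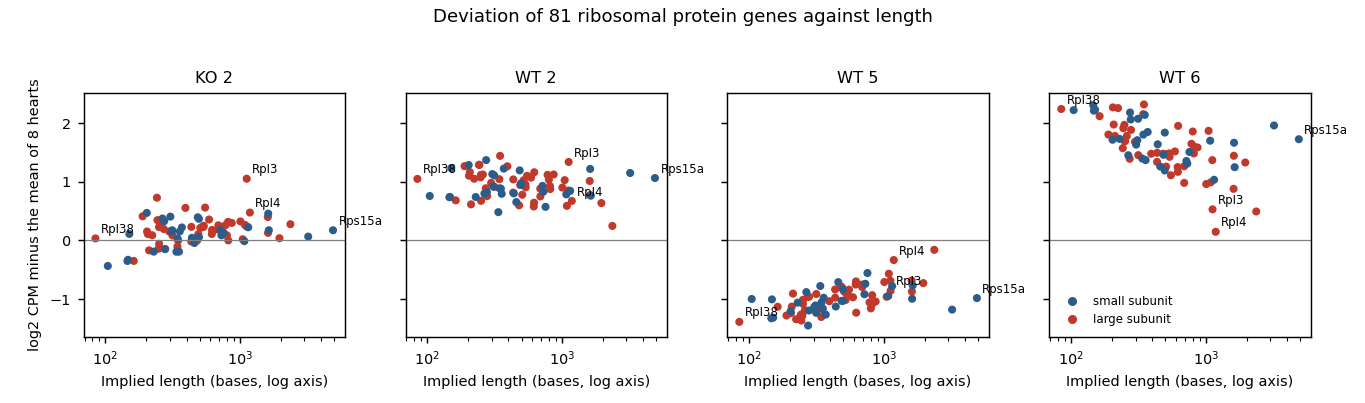
Deviation of log2 CPM from the mean of 8 hearts (vertical axis) against implied length in bases (log axis) for 81 ribosomal protein genes in KO 2, WT 2, WT 5 and WT 6; each point is a gene, blue for the small and red for the large subunit. In WT 6 the points fall with length (r = -0.59), with Rpl38 at 2.24 and Rpl4 at 0.15, and in WT 5 they rise (r = 0.58).

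Other measures also set apart some of the hearts that were high in ribosomal protein mRNAs. Of the marker lists below, some were high in WT 6 and others in KO 2 and WT 2. Only the atrial sum was high in all 3, and the endothelial sum was lowest in KO 2 and WT 2. The 9 erythroid and platelet markers, haemoglobin genes among them, summed to 12366 CPM in WT 6 and to 307 to 1673 CPM in the other hearts, with no marker at 0 in any heart. The 8 atrial markers summed to 4505 CPM in KO 2, 3176 CPM in WT 2 and 5379 CPM in WT 6, and to 226 to 403 CPM elsewhere. Nearly all of the sum in KO 2 and WT 2 was Nppa. The 5 tested atrial markers had a median deviation of -1.16 in KO 2, -0.91 in WT 2 and 2.91 in WT 6. By that measure only WT 6 was high in the list as a whole. Adipocyte markers summed to 5.34 CPM in WT 6 and to 0 to 0.62 CPM elsewhere, and none of the 8 passed the count filter. Summed macrophage and fibroblast markers were high in KO 2 and WT 2 and not in WT 6. Of 10 macrophage markers 10 lay above their mean over the hearts in KO 2, 9 in WT 2 and 3 in WT 6. Of 10 fibroblast markers it was 7 in KO 2, 9 in WT 2 and 2 in WT 6. The 10 endothelial markers, none at 0 in any heart, summed to 1219 CPM in KO 2, 1174 CPM in WT 2 and 1722 to 3850 CPM elsewhere. The part of these cells in the members' levels was not tested. Scaling by total counts gave a members' median of -0.75, with all but Rpl7l1 negative and a median of all genes of 0.081. The limma fit on TPM gave -0.37 with 78 of 81 negative, where the median of all genes stood at 0.25.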

How the data were processed

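RNA of 8 mouse hearts was sequenced. Libraries were strand-specific, made from polyadenylated RNA isolated with TRIzol and sequenced from both ends (DNBSEQ), per the labels' protocols; 1 protocol paragraph speaks of rats, while each sample is labelled as mouse. HISAT, Bowtie2 and build GRCm39 stand in the submitters' processing notes, and the program that counted reads is not given in the sources.

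Per the file headers, the 1 table that the authors deposited holds estimated counts, TPM and FPKM by gene and library. The deposited counts were not all whole: 4.22% to 5.75% of a library's values had a fraction (tolerance 1e-06). The TPM values deposited by the authors served to show levels per length and in 1 alternative fit, and the deposited FPKM values only to derive the implied length, which is the count divided by FPKM and by the library total. The authors' group averages and 8 empty per-sample columns were not used. Every row named a gene.

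The counts were rounded before fitting. Genes passed filterByExpr (minimum count 10, minimum total 15) and were fitted with edgeR 4.0.16 in R 4.3.3 over all 8 libraries without covariates, with TMM scaling, the robust quasi-likelihood F-test and Benjamini-Hochberg adjustment over all 12826 genes at 0.05. The script was tested on simulated data. CPM values are scaled by TMM, log2 CPM uses a prior count of 2, and intervals are at 95%. DESeq2 1.42.0, limma 3.58.1 on log2(TPM + 1), other scalings and filters, and fits with hearts left out were alternatives; a limma fold change on that scale understates the change of low genes. No 2 libraries agreed within sampling noise (smallest chi-square per degree of freedom 7.56). The labels do not say whether equal numbers pair hearts, and nothing in them names a batch. Depth sets the precision of single counts; the biological coefficient of variation was 43.7%.

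The members, gene lists, named genes and alternatives were chosen with earlier results of these data known. Named were Rpl3l, Rpl3, the stalk genes, Rpsa, Rps6, each paralogue with its parent, the 4 members with the highest TPM, the 4 most and 4 least negative, the 4 with the smallest unadjusted p, members failing the filter, and from each list the 2 genes of smallest p; Rpl13, Rps12, Rps15a and Rps20 were named after their values were seen. A gene of the list of ribosomal proteins with other names and a marker gene were left out of their lists after the fits and are not reported here. Sequences are RefSeq windows of build GRCm38.p6; coordinates of other genes are not given, since the files use another build.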

Additional observations from a re-analysis of the deposited data

Results flagged for a closer look

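Over the named members and 3 values summed over genes, 10 of 66 sets of 4 hearts held a heart far from its 3 group mates, by Dixon's ratio of the gap to the nearest heart over the group's range (past the 95% critical value, which chance alone exceeds in about 1 in 20 sets). In each of the 10 the distant heart was KO 2, which was the highest knockout heart. The ratios on CPM were 0.924 for Rpl22, 0.91 for its paralogue Rpl22l1, 0.915 for Rpl39, 0.898 for the stalk base Rplp0 and 0.897 for Rpl36a. They were 0.874 for Rpl41, 0.866 for Rpsa, 0.856 for Rpl3, 0.844 for Rpl4 and 0.841 for Rpl6. Over the 81 tested members KO 2 passed the critical value in 15 and KO 4 in 1. Rpsa, for example, had 2025 CPM in KO 2 and 836 to 996 CPM in the other knockout hearts. No wild-type heart passed it. The members rise and fall together, so these are not 10 separate observations.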

How the results depend on the processing

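No member passed the threshold in the fit of all hearts or in any alternative other than the replicate block. The replicate block, which takes equal numbers as pairs (only 2 and 4 are shared), called 93 genes higher and 75 lower, and 1 member, Rpl32l, at -1.36 (edgeR adjusted p 0.0323; under the other alternatives the smallest adjusted p of any member was 0.758 to 0.99999); Rpl3l was then at 0.20 and Rpl7l1 at 0.16, and the members' median at -0.67. Deviations of KO 2 and WT 2 correlated at r = 0.91 and those of KO 4 and WT 4 at 0.11 across genes, but KO 1 correlated with WT 4 at 0.69, and the labels tie no hearts together. DESeq2 called 4 genes lower.

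Leaving out each heart gave 1 (without WT 4 or WT 5) to 2 genes called higher, against 3 with all hearts, 1 called lower, 79 to 81 negative members, a members' median from -1.28 (without WT 5) to -0.47 (without WT 6), and a difference of mean log2 summed CPM from -1.14 to -0.29, against -0.70 with all hearts. It also turned the sign of Rpl3l (from -0.69 to 0.22; above 0 without KO 2, at 0.017, and without WT 6), Rpl3 (-1.03 to 0.088) and Rpl4 (-0.34 to 0.12), both without WT 2, and Rpl7l1 (-0.24 to 0.023, without WT 6). Without WT 2, WT 6 and KO 2 there was 1 gene called higher and 2 lower, 51 negative members, a median of -0.023 and a difference of 0.031. Above 0 were then Rpl22l1 (0.23), Rps27l (0.15), Rpl3l (0.13), Rpl14 (0.12), Rpl7l1 (0.11), Rpl22 (0.096), Rpl6 (0.086), Rpl4 (0.074), Rps29 (0.058), Rps6 (0.051), Rpl5 (0.028), Rplp0 (0.027) and Rpl36a (0.024). Fewer hearts entered that fit. Total-count scaling turned Rpl7l1 (0.031), and limma on TPM turned Rpl3l (0.021), Rpl4 (0.23), Rpl5 (0.026) and Rpl7l1 (0.22). The median of all genes was 0.081 under total-count scaling and 0.25 in limma. The cause of these turns was not tested. Of 476 values of 28 named members under 17 alternatives, 450 kept direction and side of the threshold. DESeq2, both filters and the block give no summed CPM of their own.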
